A study of Mus musculus with 112 samples.

Results

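Mitochondrial ribosomal proteins are encoded by nuclear genes, made in the cytoplasm and imported into the mitochondrion. There they assemble with ribosomal RNA of the mitochondrial genome into a large and a small subunit. The resulting mitoribosome translates only the mRNAs of that genome, which encode core subunits of the respiratory chain and of ATP synthase, so its protein and RNA parts come from separate genomes. In skeletal muscle, a tissue rich in mitochondria, a supply of both is needed for oxidative metabolism.

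The genes described here are all symbols in the count tables that begin with Mrpl or Mrps followed by a digit, 77 of 32544 symbols, after 5 symbols marked as pseudogenes (-ps) were left out. All 77 passed the filter on low counts, as did 11886 symbols in all. By their known place in the mammalian mitoribosome, 50 belong to the large subunit, 26 to the small subunit, and Mrps36 is known as a subunit of the 2-oxoglutarate dehydrogenase complex and not of the ribosome. Mrps18a and Mrps30, named for the small subunit, sit in the large one. Another subunit gene, now called Mrpl58, stands in the tables under its older symbol Ict1 and is outside the 77.

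RNA was sequenced from the gastrocnemius of 16-week-old mice of the Diversity Outbred stock, where no animal shares its genotype with another. Each of 28 males and 28 females had the right limb immobilized in a cast for 3 weeks, and the left limb of the same animal served as control. The 4 groups are therefore immobilized limbs of males, control limbs of males, immobilized limbs of females and control limbs of females, with 28 libraries each. All controls came from animals that carried a cast, and side and treatment cannot be told apart. Whole muscle was used, so fewer fibres and less RNA per fibre cannot be told apart. Values below are CPM, counts relative to the effective library size, and log2 fold changes are immobilized over control limb within the animal, from edgeR's quasi-likelihood fit. A gene is called changed at a Benjamini-Hochberg adjusted p of at most 0.05 over all genes tested.

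Total counts ran from 1716485 to 9995936 per library, which limits precision for genes of low level. Ribosomal RNA had been depleted from the libraries and the tables list no mitochondrial ribosomal RNA, so the RNA part of the mitoribosome was not analysed here. In 10 animals, 1 limb had a level of Acta1, the actin of muscle fibres, under 50% of the median library. The summed markers of T, B and NK cells reached 1400 CPM in the libraries of these 10 animals, against at most 149 CPM in those of the others, and the main counts are given with and without these 10 animals. Over all animals, 6 of 6 macrophage markers and 4 of 5 Schwann cell markers rose in immobilized limbs in the mean of the sexes, while 0 of 8 muscle fibre, 0 of 6 adipocyte and 0 of 4 tendon markers were called in either direction. Without the 10 animals, 5 of 5 Schwann cell markers rose and 2 of 8 muscle fibre markers fell. The summed macrophage markers ran from 20.0 to 1090 CPM with a median of 71.0 in male immobilized limbs, against 12.2 to 195 and 55.2 in male control limbs. In females they ran from 11.1 to 698 CPM with a median of 118 in immobilized limbs, against 29.3 to 385 and 60.8 in control limbs. The part of these cells in the results for the ribosomal proteins was not tested.

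Promoters of the genes that rose, that fell most, and whose level was most alike between the limbs of an animal are shown for reference, read from RefSeq on GRCm38.p6. Each runs from 250 bases before to 50 bases after the annotated start, 5′ to 3′ on the gene's strand, at chr14:54426659-54426958 for Mrpl52, chr9:105053018-105053317 for Mrpl3 and chr1:37890227-37890526 for Mrpl30, all on the plus strand. Capitals mark matches on either strand to CCGGAAG, the core bound by the ETS factor GABP, to the consensus site of NRF1, to AANATGGC, a form of the YY1 site, to AAGGTCA, the core of the ERR receptors' site, to CACGTG, an E-box, and to CCAAT. GABP, NRF1, YY1 and the ERR receptors are known regulators of nuclear genes for mitochondrial proteins.
Mrpl52: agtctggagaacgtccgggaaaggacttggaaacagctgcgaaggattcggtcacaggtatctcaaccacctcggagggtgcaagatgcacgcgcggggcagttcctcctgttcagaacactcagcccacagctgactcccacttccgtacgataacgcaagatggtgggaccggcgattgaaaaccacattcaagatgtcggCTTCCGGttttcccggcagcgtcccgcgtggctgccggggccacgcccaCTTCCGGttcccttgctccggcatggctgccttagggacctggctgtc
Mrpl3: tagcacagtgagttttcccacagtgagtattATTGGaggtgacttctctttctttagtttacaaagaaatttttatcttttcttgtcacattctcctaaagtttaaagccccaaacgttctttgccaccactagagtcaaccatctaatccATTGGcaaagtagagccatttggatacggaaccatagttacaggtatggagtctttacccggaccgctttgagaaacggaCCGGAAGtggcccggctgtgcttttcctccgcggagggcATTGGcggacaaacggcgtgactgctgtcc
Mrpl30: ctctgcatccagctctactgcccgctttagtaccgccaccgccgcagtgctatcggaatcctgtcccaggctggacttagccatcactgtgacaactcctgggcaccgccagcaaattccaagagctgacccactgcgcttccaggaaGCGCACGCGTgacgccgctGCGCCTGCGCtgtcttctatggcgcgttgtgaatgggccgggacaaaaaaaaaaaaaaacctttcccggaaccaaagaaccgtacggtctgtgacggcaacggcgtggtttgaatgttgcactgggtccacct
The Mrpl52 stretch holds CCGGAAG at 2 places, in the reverse orientation at both. The Mrpl3 stretch holds CCGGAAG at 1 place and CCAAT at 3, and the Mrpl30 stretch holds the NRF1 consensus at 2. No matches overlap in these 3 stretches. RefSeq promoters were matched for 68 of the 77 genes, with 74 starts in all. CCGGAAG was in 33.8% of these 74 stretches, in 17.0% of those of all genes tested and in 8.86% of all promoters in the table. The NRF1 consensus was in 24.3%, 13.5% and 6.31% of the same 3 sets. A stricter form, with G as first and C as last base, had been searched before it and was in 17.6%, 10.0% and 4.60%. AANATGGC was in 27.0%, 8.37% and 6.05%. AAGGTCA was in 5.41%, 3.09% and 4.72%, CACGTG in 9.46%, 10.0% and 7.15%, and CCAAT in 40.5%, 37.1% and 37.4%. The median log2 fold change in the mean of the sexes was -0.04 for the 25 members with CCGGAAG and -0.09 for the 43 without it. It was -0.08 for the 18 with the NRF1 consensus and -0.08 for the 50 without. These matches are a description of letters in the window.

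Per base of exon, the transcripts covered a wide range of levels in control muscle. Mrps21, a small-subunit protein with a bacterial counterpart, had the highest level, with a median of 114 CPM per kb in immobilized limbs and 110 CPM per kb in control limbs (quartiles 95.3 and 125 in control limbs). Mrpl12, the protein of the flexible stalk that recruits translation factors, came next with 64.9 CPM per kb in immobilized limbs and 70.5 in control limbs, quartiles 63.5 and 85.4. Mrps36, Mrpl18 and Mrpl2 followed, with 55.5, 52.0 and 57.9 CPM per kb in immobilized limbs and 63.3, 60.8 and 57.6 in control limbs, and the quartile ranges of Mrpl12, Mrps36, Mrpl18 and Mrpl2 overlapped there. At the low end stood Mrps22 at 3.58 CPM per kb in immobilized and 3.70 in control limbs, Mrps35 at 2.68 and 2.91, Mrpl19 at 2.40 and 2.71, and Mrpl23 at 0.940 and 0.722. Lengths are those of all annotated exons of a gene joined, so a gene with a long exon that muscle does not use appears lower than it is. Mrps21, Mrps36, Mrpl12, Mrpl18 and Mrpl23 have processed pseudogenes that share at least 90% of bases over at least 40% of the transcript. So do Mrpl21, Mrpl22, Mrpl27, Mrpl41, Mrpl42, Mrps10 and Mrps18c. The counts of all these members are uncertain to that extent.

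In male muscle, 53 of the 77 transcripts had a log2 fold change below 0 after immobilization, with a median of -0.05, against 0.003 over all genes tested. Mrpl52, a large-subunit protein without a bacterial counterpart, was the member called and it rose, 1 of 77 or 1.3%, against 263 of 11886 genes or 2.21%, of which 1.09% were higher. It ran from 17.6 to 43.4 CPM with a median of 26.1 in male immobilized limbs, against 14.2 to 31.3 CPM and a median of 20.7 in male control limbs. The groups overlapped, and 24 of 28 males had the higher level in the immobilized limb. The log2 fold change was 0.31 ± 0.09 (SE, n = 28 pairs; edgeR quasi-likelihood, adjusted p = 0.042), and 0.27 with an adjusted p of 0.031 without the low Acta1 animals. In females Mrpl52 ran from 18.6 to 42.5 CPM with a median of 26.3 in immobilized limbs, against 16.4 to 42.0 CPM and a median of 21.7 in control limbs, with a log2 fold change of 0.15 that missed the threshold (adjusted p = 0.29 by edgeR).

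In females, 65 of the 77 transcripts had a log2 fold change below 0, and the median was -0.09, against 0.006 over all genes tested. Only Mrpl3 was called, 1 of 77 genes or 1.3%, against 543 of 11886 genes or 4.57% of all genes tested, of which 2.47% were lower. Mrpl3, a large-subunit protein with a bacterial counterpart near the peptidyl transferase centre, ran from 12.3 to 53.5 CPM with a median of 32.9 in female immobilized limbs, against 18.7 to 65.9 CPM and a median of 41.3 in female control limbs. The groups overlapped over most of their range, and the level was lower in the immobilized limb in 19 of 28 females. Its log2 fold change was -0.38 ± 0.11 (SE, n = 28 pairs), with an adjusted p of 0.036 by edgeR's quasi-likelihood test. Without the 10 animals with a low Acta1 limb it was -0.25 with an adjusted p of 0.018.

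**Figure D1:**
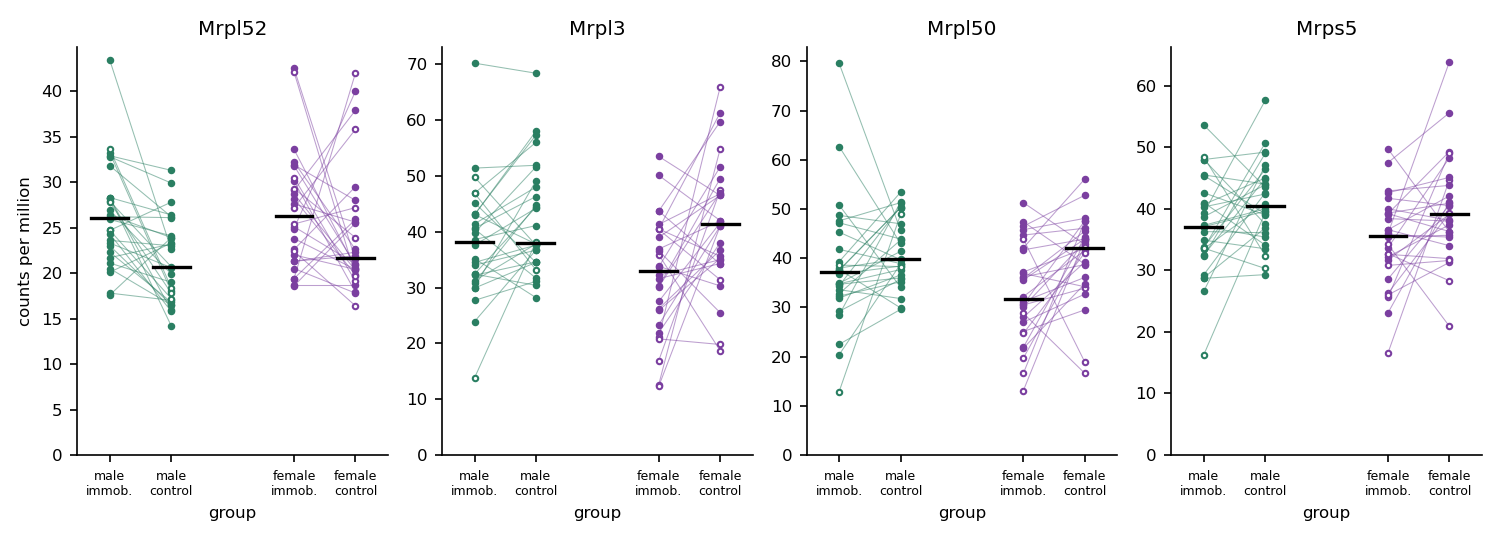
Level of Mrpl52, Mrpl3, Mrpl50 and Mrps5 in CPM (vertical axis) in the immobilized and control limb of each animal, joined by a line, for 28 males and 28 females. Black bars are medians and open points are animals with 1 limb low in Acta1. The groups overlap for each of the 4 genes, and the median of Mrpl52 is 26.1 in male immobilized limbs against 20.7 in male control limbs.

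The mean of the effects in the sexes gave the smallest errors. In it, 10 of 77 members were called, 13%, against 2371 of 11886 genes or 19.9%. In the direction of a decline these were 9 of 77 or 11.7%, against 10.4% of all genes tested, and in the direction of a rise 1 of 77 or 1.3%, against 9.58%. The share that declined was near that of all genes tested. The median of the 77 was -0.07 (lowest -0.27, highest 0.23), against 0.005 over all genes tested, and 56 of 77 were below 0. The 95% interval of every one of the 77 lay within 1.5-fold of no change in this mean, as it did for 76 of 77 in males and 75 of 77 in females. The exceptions were Mrpl23 in males, with an outer bound of -0.66, and Mrpl3 and Mrpl23 in females, with outer bounds of -0.60 and 1.04.

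Large-subunit proteins made up 8 of the 10. Mrpl3 had the lowest log2 fold change, -0.27 ± 0.08 (SE, n = 56 pairs; adjusted p = 0.0087), although in males its median was 38.1 CPM in immobilized limbs and 38.0 CPM in control limbs, with a log2 fold change of -0.16 and an adjusted p of 0.44. Mrpl50, which has no bacterial counterpart, was lower in the immobilized limb in 41 of 56 animals. It ran from 12.9 to 79.6 CPM with a median of 37.2 in male immobilized limbs, against 29.6 to 53.4 CPM and 39.8 in male control limbs. In females it ran from 13.1 to 51.3 CPM with a median of 31.7 in immobilized limbs, against 16.6 to 56.1 CPM and 42.2 in control limbs. All 4 groups overlapped, and its log2 fold change was -0.24 ± 0.07 (edgeR, adjusted p = 0.020).

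The stalk protein Mrpl12 fell by 0.19 ± 0.07 on the log2 scale (adjusted p = 0.049), with medians of 102 CPM in immobilized and 107 CPM in control limbs of males, and of 98.6 CPM in immobilized and 111 CPM in control limbs of females. Its neighbours at the stalk base did not pass the test: Mrpl10 had a log2 fold change of -0.04 (interval -0.12 to 0.04) and Mrpl11 of -0.08 (interval -0.19 to 0.04). Mrpl34, Mrpl55, Mrpl30 and Mrpl19, large-subunit proteins with bacterial counterparts, fell by 0.21, 0.21, 0.19 and 0.14 on the log2 scale, with adjusted p of 0.030, 0.044, 0.049 and 0.046 by edgeR's quasi-likelihood test. Mrpl52 was the member that rose, by 0.23 ± 0.06 on the log2 scale (adjusted p = 0.0065), higher in the immobilized limb in 42 of 56 animals. A processed pseudogene copies part of Mrpl12, so the count of Mrpl12 is less certain. Exons of Gcfc2 lie on the opposite strand over 36.0% of the Mrpl19 exon bases. The count of Mrpl19 is less certain if the counting ignored the strand, and the counting tool is not given. Mrpl3, Mrpl30, Mrpl50 and Mrpl52 have no such copy in the annotation.

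In the small subunit, Mrps5 and Mrps2 were called, both lower. Mrps5, a protein of the decoding region whose bacterial counterpart affects reading accuracy, ran from 16.3 to 53.6 CPM with a median of 37.1 in male immobilized limbs, against 29.3 to 57.6 CPM and 40.4 in male control limbs. In females it ran from 16.6 to 49.7 CPM with a median of 35.6 in immobilized limbs, against 20.9 to 63.9 CPM and 39.2 in control limbs. The ranges overlapped and 35 of 56 animals had the lower level in the immobilized limb, and the fold change on the log2 scale was -0.18 ± 0.06 (adjusted p = 0.022 by edgeR). Mrps2, also with a bacterial counterpart, fell by 0.16 ± 0.06 on the log2 scale (adjusted p = 0.031) and was lower in 38 of 56 animals. Mrps12, a small-subunit protein of the decoding centre, had a log2 fold change of 0.08 with an adjusted p of 0.47.

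By subunit, the large-subunit median was -0.08 with 1 of 50 called higher and 7 lower, and the small-subunit median -0.06 with 0 of 26 higher and 2 lower. Among large-subunit genes, 6 of 30 with a bacterial counterpart fell and 0 rose, while of the 20 without one 1 fell and 1 rose. In the small subunit, 2 of 16 with a bacterial counterpart and 0 of 10 without one were called. Beside these stand 10.4% of all genes tested that fell and 9.58% that rose; the counts were not compared by a test. The members named for other roles did not pass: Mrpl44, which has the fold of a double-stranded RNA nuclease, had a log2 fold change of -0.12 (adjusted p = 0.17), and Mrpl45, which lies at the tunnel exit and holds the ribosome to the inner membrane, of -0.15 (adjusted p = 0.17). The 3 relatives of bacterial protein S18 had log2 fold changes of 0.01 (Mrps18a), -0.06 (Mrps18b) and 0.12 (Mrps18c), with adjusted p of 0.96, 0.52 and 0.14. Mrps22 was at -0.15 and Mrps30 at 0.06, with adjusted p of 0.11 and 0.43. Mrps36, the dehydrogenase subunit, was at -0.23 (adjusted p = 0.072), and its 8 processed pseudogenes make this value uncertain.

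The genes at the upper end after Mrpl52 were not called. Mrpl48 was at 0.15 (adjusted p = 0.12) and Mrpl33 at 0.11 (adjusted p = 0.26). Mrpl23, a protein of the tunnel exit, had the widest interval of the 77, from -0.17 to 0.57 in the mean of the sexes. It ran from 0.709 to 9.99 CPM with a median of 3.34 in male immobilized limbs, against 0.667 to 14.9 CPM and 3.84 in male control limbs. In females it ran from 1.78 to 13.3 CPM with a median of 5.23 in immobilized limbs, against 0.689 to 16.2 CPM and 3.31 in control limbs. All 4 groups overlapped, the level is among the lowest of the members, and a pseudogene identical to it over 68.9% of the transcript has its own row in the tables.

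Without the 10 animals with a low Acta1 limb, 20 of 77 members were called in the mean of the sexes, 2 higher and 18 lower, or 26%, against 3814 of 11731 genes or 32.5%. In that subset 23.4% of members fell, against 16.5% of all genes, and 2.6% rose, against 16%. Of the 10 called over all animals, 8 were among the 20, and Mrpl19 and Mrps2 were not. The added ones included Mrpl18, at -0.18 over all animals and -0.19 without the 10 (adjusted p = 0.0011 without them), and Mrps36, at -0.21 (adjusted p = 0.0015). Mrpl48 was, beside Mrpl52, the member called higher, at 0.17 with an adjusted p of 0.020. The 2 muscle fibre markers that fell in this subset were Myh2, the myosin of fast oxidative fibres, at -0.71 (adjusted p = 0.0071), and Mb, the oxygen store myoglobin, at -0.52 (adjusted p = 0.033), while Acta1 was at -0.16 (adjusted p = 0.064 by edgeR). Over all animals Myh2 was at -0.67 and Mb at -0.47, with adjusted p of 0.10 and 0.23, and the part of fibre types in the members' values was not tested. In males 1 of 77 was then called, against 9.13% of all genes, and in females 9 of 77, all lower, or 11.7%, against 17.2% of all genes and 9.1% lower.

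The animal numbers were also taken in 3 ranges, which the labels do not describe as batches. In animals 1 to 20 the median of the members was -0.14 in the mean of the sexes, with 3 of 77 called, against 9.69% of all genes. In animals 21 to 40 it was -0.05 and in animals 41 to 59 it was 0.05, with 0 of 77 called in each, against 1 of 11881 genes or 0.00842% and 2 of 12186 genes or 0.0164% (at an unadjusted p of 0.05, edgeR had 2 and 6 members). Within males 0 of 77 members were called in each of the 3 ranges, against 0.0525%, 0% and 0.00821% of all genes, and within females 0 of 77, against 3.97%, 0% and 0%. The direction of the members' median turned in the last range. The ranges keep the animals with a low Acta1 limb. In the last range, females 44 and 48 and males 52 and 55, low in the control limb, had members' median changes of 0.25, 0.71, 0.39 and 0.47. Females 41 and 42, low in the immobilized limb, had -0.46 and -0.19. The part of these animals in the turn was not tested. The median of the mitochondrial mRNAs kept its direction, at -0.77, -0.45 and -0.29 in the same ranges. Mrpl52 was above 0 in each range, at 0.15, 0.26 and 0.29, and Mrpl3 was below 0 in each, at -0.28, -0.31 and -0.20.

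The mRNAs that the mitoribosome translates had larger log2 fold changes than the mRNAs of its proteins. All 13 mRNAs of the mitochondrial genome had log2 fold changes below 0, with a median of -0.38 in males, -0.66 in females and -0.52 in the mean of the sexes, where 11 of 13 fell. In males edgeR called 0 of 13, with 3 at an unadjusted p of 0.05, and in females 7 of 13 fell. Without the 10 low Acta1 animals 3 of 13 fell in males, 11 of 13 in females and 12 of 13 in the mean, with medians of -0.33, -0.61 and -0.47. They took 13.7 ± 5.21% of the counts in male immobilized limbs, against 17.1 ± 4.18% in male control limbs, and 11.4 ± 4.75% in female immobilized limbs, against 15.9 ± 4.55% in female control limbs (SD, n = 28 each). The log2 fold change was -0.99 ± 0.25 for mt-Nd4l and -0.84 ± 0.17 for mt-Nd5, subunits of complex I, -0.96 ± 0.20 for mt-Atp8 of ATP synthase and -0.74 ± 0.16 for mt-Co1 of cytochrome c oxidase (SE; adjusted p of 0.0041, 0.00055, 0.00056 and 0.0013 by edgeR). At the other end, mt-Nd3 at -0.28 and mt-Co2 at -0.38 did not pass, with adjusted p of 0.21 and 0.085.

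**Figure D2:**
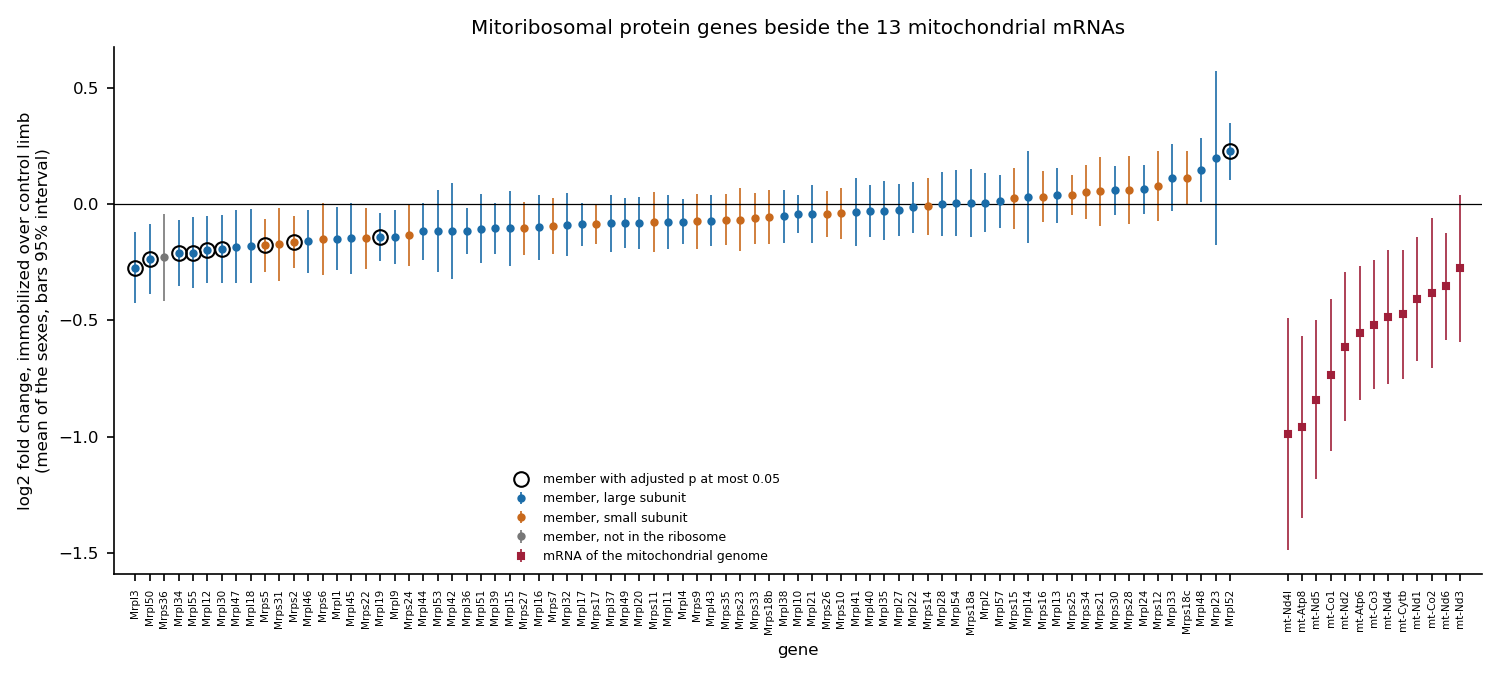
Log2 fold change of immobilized over control limbs in the mean of the sexes (vertical axis, bars 95% intervals) for each of the 77 members, ordered by value, and at the right for the 13 mitochondrial mRNAs. Ringed points have an adjusted p of at most 0.05. The members lie between -0.274 (Mrpl3) and 0.23, and the mRNAs of the mitochondrial genome between -0.99 and -0.275 (mt-Nd3). The intervals of Mrpl3 and mt-Nd3 overlap.

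In the mean of the sexes and in females, the 95% interval of each of the 77 members lay wholly above the median of the 13 mitochondrial mRNAs. In males this held for 71 of 77, the others being Mrpl3, Mrpl23, Mrpl34, Mrpl55, Mrps6 and Mrps36. The median of the mRNAs was taken here as a fixed value, without an error of its own. The mRNAs had a median SE of 0.159 in the mean and 0.229 in females, against 0.063 and 0.089 for the members. Members and mRNAs were not compared by a test. In females no member reached the value of the least changed mitochondrial mRNA, while in males 13 members were at or below that value. In the mean of the sexes Mrpl3, at -0.274 (interval -0.427 to -0.121), was level with the least changed mRNA. This was mt-Nd3, at -0.275 (interval -0.593 to 0.042). The members' summed level averaged 3180 ± 501 CPM in male immobilized limbs and 3230 ± 464 CPM in male control limbs, and 3070 ± 609 CPM in female immobilized limbs and 3300 ± 638 CPM in female control limbs (SD, n = 28 each). As a share of nuclear counts they took 0.356 ± 0.0446% in male immobilized limbs, against 0.368 ± 0.0378% in male control limbs, and 0.362 ± 0.0474% in female immobilized limbs, against 0.385 ± 0.0484% in female control limbs.

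Single animals were spread on both sides of no change. The median change of the 77 members in log2 CPM was below 0 in 17 of 28 males and 15 of 28 females. It ran from -0.83 to 0.47 with a median of -0.05 in males, and from -1.52 to 0.71 with a median of -0.07 in females. The medians of the large and the small subunit had the same sign in 52 of 56 animals. The mitochondrial mRNAs had a median change below 0 in 43 of 56 animals. Both medians were below 0 in 29 animals, the mRNAs alone in 14, the members alone in 3 and neither in 10. In 46 of 56 animals the change of the mRNAs was the more negative one. The extremes of the members were animals with a low Acta1 limb: female 2, whose immobilized limb was the low one, had a change of -1.52 with 76 of 77 members lower, and female 48, whose control limb was the low one, had 0.71 with 4 of 77 lower. Without these 10 animals the members ran from -0.65 to 0.39, and the medians of the subunits had the same sign in 42 of 46.

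**Figure D3:**
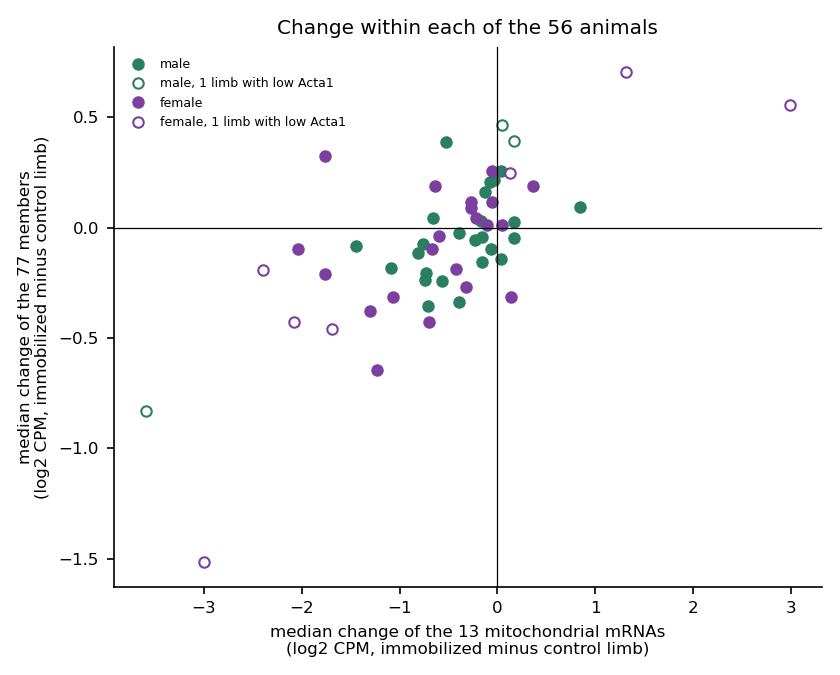
Median change of the 77 members (vertical axis) against that of the 13 mitochondrial mRNAs (horizontal axis) in each of 56 animals, in log2 CPM of the immobilized minus the control limb. Open points are animals with 1 limb low in Acta1. Most animals, 43 of 56, lie left of 0 on the horizontal axis, and the members' extremes of -1.52 and 0.71 are open points.

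Gene by gene, the change of each nuclear gene was also set against the mean change of the 13 mitochondrial mRNAs over the 56 animals, a test added after the data had been seen. With a two-sided permutation of animals within sex and Benjamini-Hochberg adjustment over 11873 genes, 58 of 77 members had a called correlation above 0, 75.3%, against 32.7% of all genes, and by Spearman's rho 56 of 77, against 27.2%. Without the 10 low Acta1 animals 12 of 77 remained called, 15.6%, against 4.69%. Both changes come from the same libraries and share their library sizes. Mrps36 had the highest value, with Pearson's r of 0.85 and Spearman's rho of 0.74 (permutation p of 1e-05 for r, the smallest that these permutations can give, adjusted p = 3.9e-05; n = 56), an r of 0.77 without the 2 animals farthest out and 0.63 without the low Acta1 animals. Mrpl42, Mrpl18 and Mrpl50 followed with r of 0.81, 0.80 and 0.80, and 0.55, 0.51 and 0.45 without those animals. Mrpl3 had 0.76 and 0.52. The median r over the members was 0.52 and 0.21 without these animals, against -0.04 and 0.00 over all genes.

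Genes that serve the mitoribosome were counted in the same fit, in which 10.4% of all genes fell and 9.58% rose. Of 13 translation factors, 5 fell and 0 rose in the mean of the sexes, with a median of -0.19: Mtif2, the initiation factor, at -0.30 ± 0.07 (adjusted p = 0.0017), Guf1, a GTPase that acts on the ribosome, at -0.23 and Taco1, a translational activator of cytochrome c oxidase subunit I, at -0.38. Of 15 genes of mitochondrial RNA processing and stability, 7 fell, with a median of -0.22, among them Ptcd2 at -0.27, Trmt10c, a subunit of mitochondrial RNase P, at -0.37 and Mtpap, the mitochondrial poly(A) polymerase, at -0.28. Of 20 mitochondrial tRNA synthetase genes and their kin, 4 fell, with a median of -0.09, including Yars2 at -0.38, Wars2 at -0.33 and Aars2 at -0.24. Of 23 genes of ribosome assembly and rRNA modification, 5 fell, with a median of -0.02, including Fastkd2 at -0.29, Nsun4 at -0.21 and Mrm1 at -0.27. None of 4 genes of mitochondrial transcription passed the test, although each was below 0 (median -0.16, Tfb2m lowest at -0.21 with an adjusted p of 0.064). Of 5 mitoribosomal proteins with other names, Ptcd3 fell by 0.19 (adjusted p = 0.049) and the rest, Dap3 at -0.07 among them, did not pass. Ict1, the release factor now called Mrpl58, was at -0.07 with an adjusted p of 0.36.

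Of the nuclear genes of the respiratory chain, 8 of 75 fell, a share near that of all genes, and 1 rose, with a median of -0.10, beside -0.07 for the members. Ndufs8 of complex I was at -0.31, Uqcrc2 of complex III at -0.37 and the rising Atp5g2, a c-subunit gene of ATP synthase, at 0.47. Of the ribosomal proteins of the cytoplasm, 57 of 79 rose and 0 fell, with a median of 0.25. Rpl22 was at 0.28 ± 0.06, Rpl38 at 0.46 ± 0.09 and Rps25 at 0.28 ± 0.06 (SE; adjusted p of 3e-04, 0.00067 and 0.00085 by edgeR's quasi-likelihood test). These lists were chosen with earlier results of the same libraries known and were not compared with each other by a test.

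**Figure D4:**
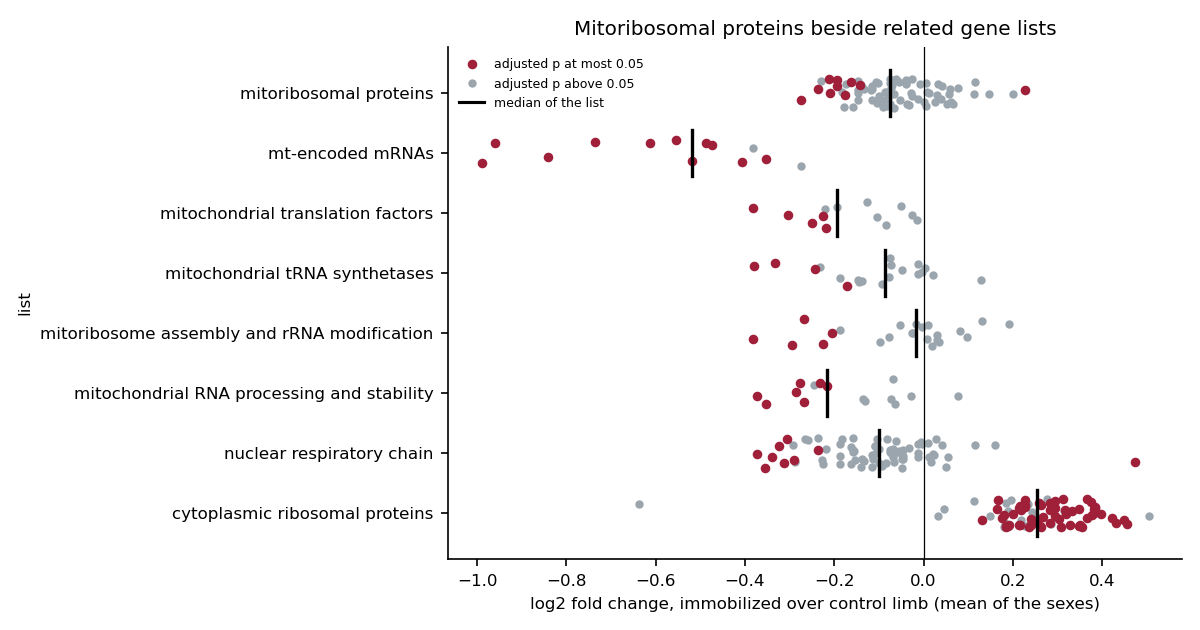
Log2 fold change of immobilized over control limbs in the mean of the sexes (horizontal axis) for each tested gene of 8 lists, with black bars at the medians and dark red points for genes with an adjusted p of at most 0.05. The mitoribosomal proteins centre on -0.07, the mitochondrial mRNAs on -0.52 and the cytoplasmic ribosomal proteins on 0.25.

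A set of known regulators of genes for mitochondrial proteins was read in the same fit. Ppargc1a, the coactivator of mitochondrial biogenesis, fell to a median of 17.2 CPM in immobilized limbs, against 26.8 CPM in control limbs, with a log2 fold change of -0.61 ± 0.16 (adjusted p = 0.0053). Gabpa, the DNA-binding subunit of GABP, Esrra and Yy1 fell by 0.32, 0.32 and 0.20 (adjusted p of 0.001, 0.0073 and 0.0041 by edgeR). Nrf1 was at -0.01 (adjusted p = 0.98), Tfam at -0.13 (adjusted p = 0.14) and Myc at 0.39 (adjusted p = 0.10).

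The immobilization effect was set between the sexes for each member. In the male minus female difference 0 of 77 members were called and 0 of 11886 genes, or 0%, and at an unadjusted p of 0.05 edgeR had 0 of 77 members and 194 of all genes. The median difference over the members was 0.07, and 75 of 77 had a 95% interval within 1.5-fold of no difference. The interval was widest for Mrpl23, from -1.38 to 0.12, and for Mrpl3 it ran from -0.09 to 0.53. Levels themselves differed little between males and females: in control limbs 0 of 77 members were called, against 214 of 11886 genes or 1.8%, with 4 members at an unadjusted p of 0.05. Their log2 fold changes of males over females in control limbs ran from -0.23 to 0.15. Without the low Acta1 animals 1 of 77 was called there, against 2.86% of all genes: Mrps28, a small-subunit protein, at -0.26 with an adjusted p of 0.038.

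In immobilized limbs 1 of 77 members differed between the sexes, Mrps6, which was lower in males, against 578 of 11886 genes or 4.86%, and 3.51% in the direction lower in males. Mrps6, a small-subunit protein with a bacterial counterpart, ran from 6.48 to 15.7 CPM with a median of 11.1 in male immobilized limbs, against 7.31 to 23.5 CPM and a median of 13.4 in female immobilized limbs. The sexes overlapped, and males over females stood at -0.37 ± 0.10 on the log2 scale (SE, n = 28 each; adjusted p = 0.029 by edgeR). Without the low Acta1 animals it was -0.29 with an adjusted p of 0.15, and 0 of 77 members were called, against 1.76% of all genes. In control limbs it was -0.11 with an adjusted p of 0.77, and the male minus female difference of its immobilization effect had an interval of -0.49 to 0.13. Exons of Mrps6 share 19.9% of their bases with Gm49711 and 10.4% with Slc5a3, both on the same strand. Reads of Mrps6 are therefore not fully separate from those of these 2 genes, and Gm49711 has no counts of its own.

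Because every mouse of this stock has its own genotype, the level of a gene may be alike in both limbs of an animal. Other things that the limbs of an animal share, such as its number range, cannot be told apart from genotype here. Over the 56 pairs, after removal of the mean of each sex and limb, 2 of 77 members had a called between-limb correlation above 0, or 2.6%, against 921 of 11886 genes or 7.75% (two-sided permutation of animals within sex, 100000 resamples, adjusted over all genes). Mrpl30, a large-subunit protein with a bacterial counterpart, ran from 32.5 to 119 CPM with a median of 71.5 in male immobilized limbs, against 39.3 to 113 CPM and 78.1 in male control limbs. In females it ran from 15.3 to 109 CPM with a median of 56.2 in immobilized limbs, against 23.3 to 142 CPM and 77.6 in control limbs. The ranges of the limbs overlapped over most of their width in each sex. Its Pearson r was 0.48 and its Spearman rho 0.45 (permutation p of 0.00036 and 0.00067, adjusted p of 0.0073 and 0.011), and r was 0.53 in males and 0.45 in females. It was 0.31 without the 2 animals farthest from the median.

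Without the 10 animals with a low Acta1 limb the r of Mrpl30 was 0.78 (permutation, adjusted p = 0.00026), the highest of the 77. In these 46 pairs 14 of 77 members were called, 18.2%, against 16.3% of all genes. After the mean of all members was subtracted from each library, 9 of 77 were called over the 56 pairs, 11.7%, against 6.43% of all genes, with r of 0.80 for Mrpl30. The subtracted mean is the members' own, so the share of all genes is not a like-for-like background for this count. By Spearman's rho 6 of 77 were called, against 9.89% of all genes. Mrpl10, the stalk base protein, ran from 26.2 to 57.1 CPM in male immobilized limbs, against 28.5 to 63.4 CPM in male control limbs, and from 29.0 to 53.7 CPM in female immobilized limbs, against 29.2 to 61.0 CPM in female control limbs. Its r was 0.43 and its rho 0.41 (permutation p of 0.00099 and 0.0020, adjusted p of 0.017 and 0.026), 0.37 without the 2 farthest animals, 0.51 without the low Acta1 animals and 0.07 after the members' mean was subtracted. Mrpl22, Mrpl27, Mrps17 and Mrps10 came next, with r of 0.38, 0.37, 0.32 and 0.30, and did not pass by Pearson's r (permutation, adjusted p of 0.059, 0.070, 0.15 and 0.21). By Spearman's rho Mrpl22, Mrpl27 and Mrps10 passed, with rho of 0.41, 0.44 and 0.38 (permutation, adjusted p of 0.027, 0.015 and 0.046), as they did by r without the low Acta1 animals (0.44, 0.53 and 0.45, adjusted p of 0.024, 0.0031 and 0.016). After the members' mean was subtracted, Mrpl27 and Mrps10 passed with r of 0.55 and 0.49 (permutation, adjusted p of 0.0010 and 0.0041). Mrps17 passed in none of these settings. Mrpl22, Mrpl27 and Mrps10 have processed pseudogenes. The closest are identical in 97.1%, 98.9% and 97.8% of bases over 86%, 59.1% and 50.1% of the transcript. The counts of these 3 members are uncertain to that extent, and the part of the copies in their correlations was not tested. The median r over the members was 0.08, against 0.07 over all genes.

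**Figure D5:**
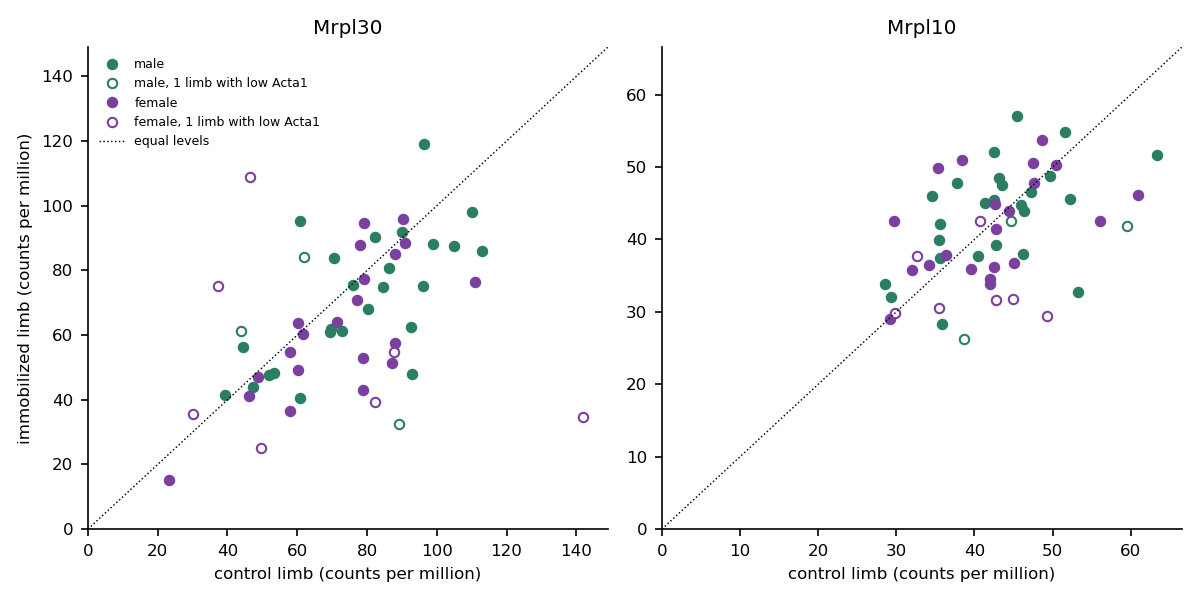
Level of Mrpl30 and Mrpl10 in the immobilized limb (vertical axis) against the control limb (horizontal axis) of each animal, both in CPM, with open points for animals with 1 limb low in Acta1 and a dotted line of equal levels. For Mrpl30 the points spread around the line from 15.3 to 142 CPM, with filled and open points on both sides of it.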

How the data were processed

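Sequencing libraries of total RNA, stranded and with ribosomal RNA depleted per the labels' protocols, came from the gastrocnemius of both limbs of 56 mice. The authors deposited raw read counts per gene symbol, whole numbers in 1 table for each sex. For the aligner, the counting tool and the build, the entry is "not given in the sources used here". Genes are therefore identified by symbol, and coordinates are printed only for RefSeq promoters. Treatment comes from the treatment label of each sample, the animal number and sex stand in its title, and 0 columns were left unused. Filtering by edgeR kept 11886 of 32544 symbols, scaled by TMM. The quasi-likelihood fit (edgeR 4.0.16, R 4.3.3) held all 112 libraries in 1 model, in which each animal had its own term and each sex its own effect of immobilization. Its p-values were adjusted by Benjamini-Hochberg over all genes tested. Sex was compared within the 56 control and the 56 immobilized libraries. Reads carried no molecular identifiers.

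The animal number pairs the limbs, since the labels assign both to the same animal. The correlation of deviations from the group mean between the limbs of an animal had a median of 0.36 and exceeded 0.1 in 45 of 56 animals, with a lowest value of -0.435. No libraries held identical counts. Between-limb and mRNA correlations used log2 CPM with a prior count of 2 and 100000 permutations of animals within sex. Levels per kb use exon lengths from the GENCODE annotation.

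The members, the gene lists and the tests were chosen with earlier results of these data known. Named are members called in a comparison, the 3 lowest and 3 highest in males, females and their mean, the 6 with the highest between-limb correlation, a set chosen by role, the mitochondrial mRNAs and up to 3 genes of each other list. Mrps21, Mrpl2, Mrpl18, Mrps35, Mrpl42, Mrps28 and the animals named were chosen after their values were seen, as were the consensus form of the NRF1 site, used after the shares of a stricter form were known, the animal-number ranges and the Acta1 limit of 50% of the median. Simulated data over 11886 genes, with 100 genes changed by 1.5 times and 100 by 2 times, served as a test: 62% and 82% of these were found in males, 63% and 82% in females and 79% and 92% in the mean of the sexes, with 4, 8 and 8 genes called in error. A change of 1.5 times is 0.585 on the log2 scale, while the members lay between -0.27 and 0.23 in the mean. The rates therefore do not give the recovery of changes as small as the members'. Genes were drawn independently, and no limb low in Acta1 was simulated. Alternatives were DESeq2 1.42.0, limma voom (limma 3.58.1), other scalings and filters, no animal block, each sex fitted alone, animal-number ranges, and leaving out the low Acta1 animals or males 15 and 16, whose pairing the earlier results put in doubt.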

Additional observations from a re-analysis of the deposited data

How the results depend on the processing

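With 28 animals a group, single animals were not left out in turn. The count of 1 member called in males became 0 with no filter on low counts and 0 in each range of animal numbers (1 to 20, 21 to 40 and 41 to 59). In females 1 became 2 with DESeq2, 0 with no filter, 0 with females fitted alone, 9 without the low Acta1 animals and 0 in each range. In the mean of the sexes 10 became 3 with no filter, 6 with median-of-ratios size factors, 20 without the low Acta1 animals and 3, 0 and 0 in the ranges. No filter adds genes to the adjustment, and the ranges hold fewer animals; the cause of the other shifts was not tested. The fit with no replicate block, against the pairing by animal used throughout, gave 1 in males, 1 in females and 8 in the mean. For sex, 0 in control limbs became 1 without the low Acta1 animals (Mrps28), and 1 in immobilized limbs became 0 with limma voom and 0 without those animals. Between limbs, 2 became 6 with Spearman's rho, 9 after subtracting the members' mean and 14 without the low Acta1 animals. Against the mitochondrial mRNAs, 58 became 12 without those animals and 56 with Spearman's rho. None of the members called over all animals for immobilization, for sex or between limbs reversed its direction in any of these settings. Against the mitochondrial mRNAs, Mrps18b, Mrpl48 and Mrps21 did so without the low Acta1 animals. Their Pearson's r went from 0.326, 0.389 and 0.474 to -0.184, -0.038 and -0.033. The other members called there stayed above 0. The members' median ran from -0.08 to 0.04 in males, from -0.18 to 0.02 in females and from -0.14 to 0.05 in their mean, above 0 in animals 41 to 59 alone. That range keeps its animals with a low Acta1 limb. Scaling moved the median of all genes by at most 0.012. Of the 10 members called in the mean, Mrpl3 lost the threshold in 2 of 12 settings, Mrpl50 and Mrpl52 in 3, Mrpl34 and Mrps5 in 4, Mrps2 in 5, Mrpl12 and Mrpl55 in 7, Mrpl30 in 8 and Mrpl19 in 10. Without males 15 and 16 the counts were 1 in males, 1 in females and 7 in the mean, where Mrpl12, Mrpl19 and Mrpl55 were no longer called. Mrpl23, of the lowest level per kb, had an interval from -0.17 to 0.57; the cause of its width was not tested.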

Other observations

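Without the 10 animals with a low Acta1 limb, 16.5% of all genes fell and 16% rose in the mean of the sexes, and several lists around the mitoribosome had more calls than over all animals. Of 13 translation factors 7 fell, of 15 genes of mitochondrial RNA processing and stability 9 fell, and of 4 genes of mitochondrial transcription 3 fell: Tfb2m at -0.19, Tefm at -0.19 and Tfam at -0.14 (edgeR's quasi-likelihood test, adjusted p of 0.010, 0.017 and 0.021). The counts stayed at 4 of 20 lower for the tRNA synthetases, 1 of 5 for the mitoribosomal proteins with other names and 5 of 23 for assembly and rRNA modification, where 1 rose. Of 75 nuclear genes of the respiratory chain 24 fell and 1 rose, while 66 of 79 cytoplasmic ribosomal proteins rose and 0 fell. Of the 50 large-subunit members 15 fell and 2 rose, and of the 26 small-subunit members 2 fell and 0 rose; the difference between the subunits was not tested. The medians stayed near those over all animals, at -0.06 for the members, -0.47 for the mitochondrial mRNAs and 0.24 for the cytoplasmic ribosomal proteins.

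Across the 77 members, Spearman's rho between joined exon length and log2 fold change was -0.05 in males, -0.08 in females and -0.04 in their mean. This is a description across genes of the same libraries, which are not independent replicates.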
